A study of Mus musculus with 4 samples.

Results

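Plk2 is a mouse polo-like kinase gene on chromosome 13. The megabase around it, from 111000001 to 112000000 on the mm9 build, held 11 of the 3190 regions in a deposited list of FAIRE-seq peaks. The regions were chosen by position alone, as those whose midpoints lay in this window. The window itself was picked because its count was high in this same list, so the count and everything that follows from it, including the short spacing, are given as a description with no test. The list gives no gene names. Plk2 was placed near 111.19 Mb of mm9, an approximate position that came with the choice of the window and not from an annotation, and the name Plk2 window is used below in that sense only.

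FAIRE-seq recovers DNA that stays soluble after formaldehyde crosslinking and so enriches stretches with few nucleosomes, such as active promoters and enhancers. The series sequenced 4 single-end SOLiD libraries, 1 FAIRE and 1 input library for each of 2 conditions. Hyperglycemic (HyG) cancer cells came from animals labelled MMTV-PyMT/PANIC and euglycemic (Control) cancer cells from MMTV-PyMT mice. All libraries share the FVB background and the MMTV-PyMT transgene, in which a mammary tumour virus promoter drives polyomavirus middle T antigen, and all cells were cultured in DMEM with fetal bovine serum without further treatment; the labels give neither the age nor the number of the animals. Glucose state and mouse line differ together and cannot be told apart. The name of the peak list mentions 2 barcodes, but nothing in the labels links them to libraries. The list is thus tied to no known library and names no control. A region may therefore mark open chromatin in one condition, in both, or a difference between them. No value below can be assigned to either condition. Read depth is unknown, there are no replicates, and a list without expression values cannot be checked against cell type markers.

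Plk2, first described as the serum-inducible kinase Snk, encodes a serine/threonine kinase with a catalytic domain and polo boxes that bind phosphorylated partners. It is known as an immediate early gene, as a target of p53 and as a regulator of centriole duplication. Its family also holds Plk1, which drives mitosis, Plk4, which starts centriole assembly, Plk3, which is linked to stress responses, and Plk5, whose catalytic part is reduced. In a RefSeq gene table of the GRCm38.p6 build, Plk2 (gene ID 20620) spans 5801 bp. The table is of another build than the list, so names, gene order and this length were taken from it, and no coordinates. On one side the next protein-coding genes are Gapt, a membrane adaptor of blood cells, and Rab3c, a small GTPase of vesicle release. On the other side the next is Actbl2, an actin-like gene, and only 7 long non-coding RNA genes and 2 pseudogenes lie between it and Plk2. Gpbp1, Mier3 and Map3k1, a kinase upstream of JNK signalling, follow Actbl2. Which of these genes lie inside the mm9 window was not determined, and no region was assigned to an exon, an intron or a UTR.

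The promoter of Plk2 is shown because it is the regulatory sequence of the named gene. The second region of the window lies near the approximate position of that gene, and where it falls relative to the gene is not known. The sequence is the RefSeq entry of the GRCm38.p6 build, 250 bases before to 50 bases after the start of the gene. Capitals mark matches to GGGCGG, the GC box, and to TGACGT, the core of the cAMP response element, on either strand.
Plk2 promoter: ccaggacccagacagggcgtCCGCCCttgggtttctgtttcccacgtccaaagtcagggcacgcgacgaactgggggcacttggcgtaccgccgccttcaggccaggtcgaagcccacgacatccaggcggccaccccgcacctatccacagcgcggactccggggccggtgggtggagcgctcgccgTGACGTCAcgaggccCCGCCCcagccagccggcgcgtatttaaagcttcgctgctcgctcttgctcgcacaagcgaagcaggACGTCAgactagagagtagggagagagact
The GC box occurred 2 times, first at base -230 and again at base -47 counted from the start, each on the opposite strand. The TGACGT core occurred 3 times. The matches at bases -62 and -60 lie on opposite strands and overlap to form a full palindrome, and the third begins at base 21. Of 32851 promoter entries of the same length, 35.7% held a GC box and 7.51% a TGACGT core. Among the other Plk genes, the promoters of Plk1, Plk3 and Plk5 held a GC box and that of Plk3 alone held the TGACGT core. The TATA box TATAAA, the CCAAT box, the AP-1 motif TGANTCA, the E-box CACGTG, the p53 motif (a single arm of its binding site) and the CArG box, all searched on both strands, had no match in the Plk2 entry, which says only that these letters are not in this window. They were held by 13.6%, 37.4%, 7.81%, 7.15%, 8.36% and 1.63% of entries in that order. The Plk2 entry was 66.3% G and C with 31 CpG dinucleotides, against medians of 52.7% and 7, and 10.6% of entries had as many CpG. Within the family the CpG number ran from 18 in Plk4 through 21 in Plk5, 22 in Plk3 and 25 in Plk1 to 31 in Plk2. A match is a run of letters and not evidence of binding. Because the sequence is of another build, whether a region of the list covers this promoter was not determined.

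The 11 regions did not spread evenly over the window. They formed a single region below Plk2, a pair closest to its approximate position, a group of 3 and a group of 5, when neighbours up to 20 kb apart were joined. That limit was chosen after the gaps were seen. The Plk2 position was given in steps of 0.01 Mb, so rounding alone can shift it by 5 kb. Which point of the gene it marks is not stated, so the true error may be larger. Beyond that rounding, 1 region lay below Plk2 and 9 lay above it, and 1 lay too close for its side to be told. Of the 11, 8 lay above the midpoint of the window. The regions occupied 6 of the 10 stretches of 0.1 Mb in the window and together covered 12050 bp, or 1.21% of it. In the sentences that follow, positions are mm9. Distances run from a region's midpoint to the Plk2 position at 111.19 Mb and carry that rounding. Widths were computed from the start and end of each region in the list. The score is the peak caller's own value per region, from the authors' list, used here only to rank regions within it.

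**Figure D1:**
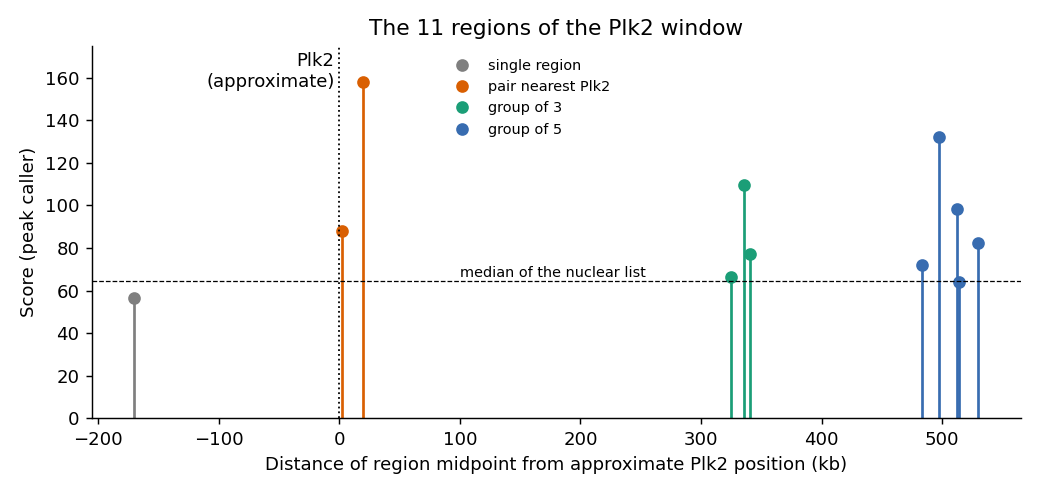
Score of each of the 11 regions (vertical axis, no unit) against the distance of its midpoint from the approximate Plk2 position in kb (horizontal axis), coloured by group. The pair lies at 2 and 20 kb, the group of 3 at 325 to 341 kb and the group of 5 at 483 to 530 kb, and the dashed line marks the median score of the nuclear list, 64.42.

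The pair lay closest to Plk2. Its first region, chr13:111191542-111192696, was 1155 bp wide with a score of 88.11, and its midpoint lay about 2 kb from the Plk2 position, within the rounding of that position. It was the only region within 10 kb of that position. The second, chr13:111209610-111210527, lay 20 kb above Plk2 and had the highest score of the window, 158.04, which ranked 40th of 3189 nuclear regions and 8th of 201 on chromosome 13. At 918 bp it was narrower than its neighbour. The higher score thus sat on the narrower and more distant of the pair, across a gap of 16.9 kb. No further region lay within 100 kb of Plk2.

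The single region below Plk2, chr13:111019849-111020737, lay 170 kb away. It had the lowest score of the window, 56.59, and 28.0% of the nuclear list scored lower. Its 889 bp were nevertheless wider than 69.8% of the nuclear list. It was also the region closest to the lower edge of the window. The nearest region outside that edge, chr13:110032455-110033856, was 0.986 Mb further down, 1402 bp wide and scored 188.71, higher than any of the 11.

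After an empty stretch of 304 kb above the pair, the group of 3 spanned 17.8 kb, from 325 to 341 kb above Plk2. Its first region, chr13:111514082-111514967, had a score of 66.44 and was the narrowest of the 11 at 886 bp. The middle region, chr13:111525607-111526552, scored 109.58 and was 946 bp wide. The third, chr13:111530351-111531885, scored 77.19 and was the widest of the window at 1535 bp, which ranked 4th on chromosome 13. Within this group, too, the highest score and the greatest width fell on different regions, which lay 3.8 kb apart.

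A second empty stretch of 141 kb led to the group of 5, which spanned 47.8 kb from 483 to 530 kb above Plk2. The region chr13:111672741-111673716 was 976 bp wide and scored 72.16. The next, chr13:111686497-111687665, was 1169 bp wide with the second highest score of the window, 132.23, rank 108 in the nuclear list. The closest neighbours of the window followed, separated by 896 bp: chr13:111701116-111702568 with 1453 bp and a score of 98.46, and chr13:111703465-111704606 with 1142 bp and 64.24. The last was chr13:111719523-111720503 with 981 bp and a score of 82.55. Apart from the gap of 896 bp, the gaps in this group were alike, at 12.8, 13.4 and 14.9 kb. Regions covered 12.0% of the span of this group, against 18.9% in the group of 3 and 10.9% in the pair. Above it the list was empty for 1.39 Mb, up to chr13:113108198-113109049 (852 bp, score 143.04).

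The short gaps set the layout of the window. Of the 10 gaps between neighbouring members, 7 were at most 20 kb and the other 3 were over 100 kb, with none between. The median gap was 14.2 kb, against 219.7 kb over the other 190 gaps of chromosome 13, of which 18 (9.47%) were at most 20 kb. Most of the short gaps were of 10 to 20 kb, 5 of 10 here against 6 of 190 elsewhere on the chromosome. Counted by region, 10 of the 11 had another region within 20 kb, where the share was 21.9% over chromosome 13 and 20.1% over the nuclear list. At 10 kb the count was 4 of 11, against 13.4% on the chromosome and 12.6% in the nuclear list. The excess over those shares cannot be separated from the choice of the window, which was made for its number of regions.

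**Figure D2:**
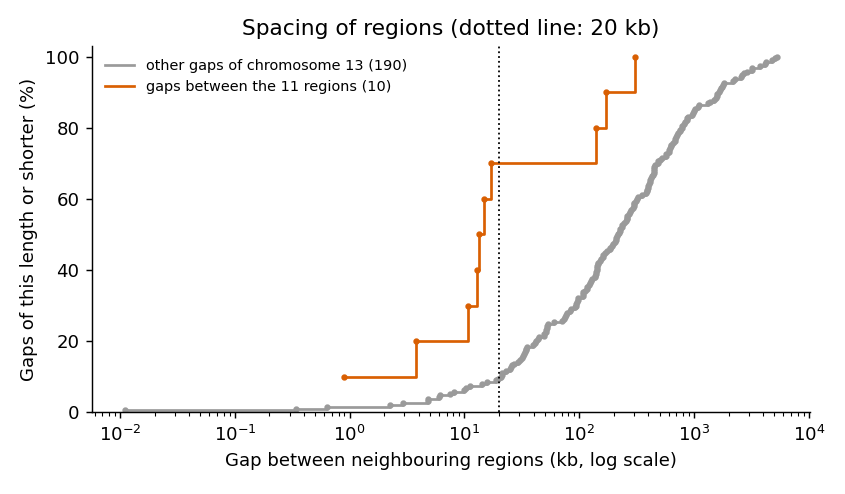
Cumulative share of gaps (vertical axis, %) against gap length in kb (horizontal axis, log scale) for the 10 gaps between the 11 regions and the 190 other gaps of chromosome 13. The member gaps break into 7 up to 20 kb and 3 above 100 kb, while the other gaps run without such a step around a median of 219.7 kb.

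In the whole nuclear list, the group of 5 was the only run of 5 or more regions joined by gaps of at most 20 kb. At this limit 2547 regions stood alone, and there were 254 pairs, 35 runs of 3 and 6 runs of 4. It was also the only such run at a limit of 15 kb. At 10 kb it broke up, and the longest run of members was then 2 where the list reached 4. At 30 kb the list had 3 runs of 5 or more, 1 of them longer than this one, and at 100 kb it had 28, with 9 longer. The group is thus the longest run of the list over a narrow range of limits, and its place depends on the limit chosen.

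Among equal windows of 1 Mb on chromosome 13, the Plk2 window held the most regions. The 201 regions of the chromosome fell into 114 windows between its first and last region, of which 40 (35.1%) held none. The median window held 1 region and the mean was 1.76. The Plk2 window held 5.47% of the regions of the chromosome, and 11 windows (9.65%) held 5 or more. The adjoining windows held 1 region below and 0 above. Next in number were the window from 34000001 to 35000000 with 8 regions and the windows from 16000001 to 17000000 and from 103000001 to 104000000 with 7 each.

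**Figure D3:**
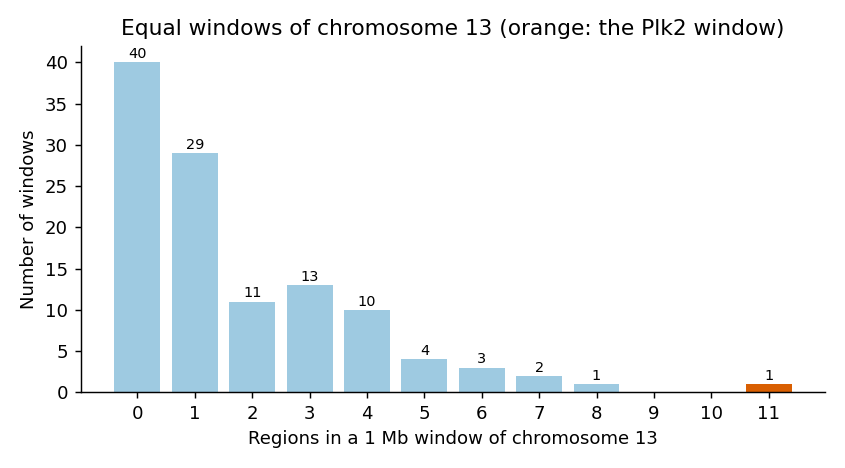
Number of 1 Mb windows of chromosome 13 (vertical axis) by the number of regions they held (horizontal axis), with the Plk2 window in orange. The Plk2 window stands at 11, the next highest window at 8, and 40 of 114 windows held none.

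These next windows held fewer regions, which by itself leaves fewer close neighbours. In the window from 34000001 to 35000000, 2 of 8 regions had another within 20 kb, and in each of the windows with 7 regions the number was also 2, against 10 of 11 in the Plk2 window. At 10 kb the numbers were closer, with 2 of 8, 2 of 7 and 2 of 7 against 4 of 11, so the contrast depends on the limit of 20 kb, which was chosen after the gaps were seen. The spread of regions was no smaller in the Plk2 window, at 701 kb from first to last, than in the window with 8 (695 kb). The regions of the windows with 7 ran over 319 and 990 kb. Median scores were 102.06 in the window with 8 regions, 58.64 and 56.14 in the windows with 7, and 82.55 in the Plk2 window. With 1 list and no replicates these differences were not tested.

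The window is defined by position, and its definition names neither width nor score. Both come from the same peak calling as the positions, and the window was chosen with earlier results of these data known. Every one of the 11 regions was wider than the median of the nuclear list, 779 bp, which 62.2% of the regions of chromosome 13 exceeded. Their widths ran from 886 to 1535 bp with a median of 981 bp, against 848 bp for the other 190 regions of chromosome 13 and 779 bp for the nuclear list. Widths at or above the upper quartile of the list, 921 bp, were found in 8 of the 11, against 36.8% of chromosome 13 and 25.1% of the nuclear list. Similar widths were found in 2 of the 3 next windows. The window from 34000001 to 35000000 had a median width of 1033.5 bp, with 6 of 8 regions wider than the list's median and 5 of 8 (62.5%) at or above 921 bp. The window from 16000001 to 17000000 had a median of 979 bp, with 6 of 7 and 5 of 7 (71.4%). The window from 103000001 to 104000000 had a median of 687 bp, with 3 of 7 and 1 of 7. Greater width was thus not particular to the Plk2 window. The 11 regions are neighbours from 1 list and not independent replicates, so the difference in width was not tested.

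Scores fell on both sides of the list's median. They ran from 56.59 to 158.04 with a median of 82.55, against 65.67 for the rest of chromosome 13 and 64.42 for the nuclear list. The scores of the nuclear list began at 50.01 and reached 246.65. Of the 11, 9 scored above the list's median, where the share on chromosome 13 was 53.2%. The other 2 were the single region below Plk2, at 56.59, and the second of the closest pair, at 64.24, just under that median. Scores of at least 100 were reached by 3 of the 11, against 18.9% on chromosome 13 and 12.1% in the nuclear list. Each of these 3 lay in a different group: in the pair closest to Plk2 (158.04), in the group of 3 (109.58) and in the group of 5 (132.23). Each group of neighbours therefore held 1 region of at least 100, beside regions between 64.24 and 98.46. The region at 98.46 lay in the group of 5, just under that limit. The count of 1 per group thus depends on the limit of 100 and on the groups, whose 20 kb limit was chosen after the gaps were seen.

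**Figure D4:**
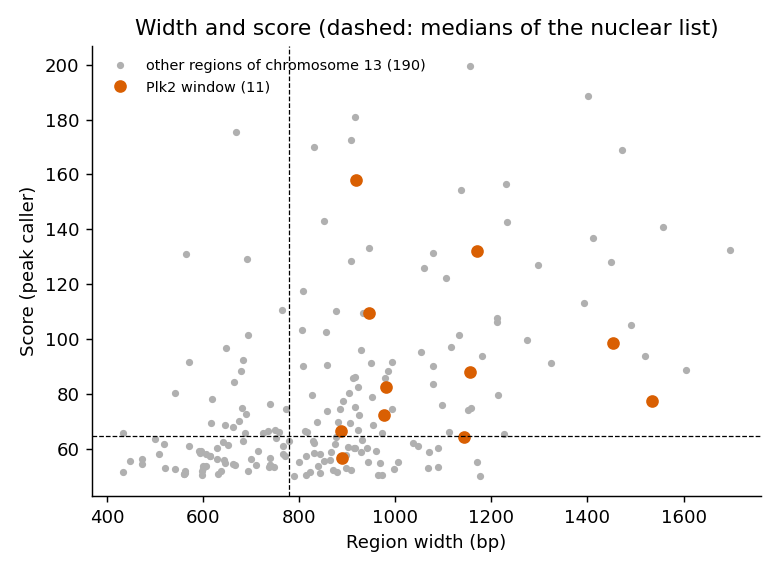
Score (vertical axis, no unit) against width in bp (horizontal axis) for the 11 regions of the Plk2 window (orange) and the other 190 regions of chromosome 13 (grey); dashed lines mark the medians of the nuclear list. All 11 lie to the right of the width line at 779 bp, and 9 lie above the score line at 64.42.

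Within the window, width and score were only loosely related (Spearman's rho 0.264 over 11 regions), and the value was 0.445 over the other 190 regions of chromosome 13. These are descriptions across regions that share a list and a peak caller. The 2 widest regions, 1535 and 1453 bp, scored 77.19 and 98.46, while the highest score belonged to a region of 918 bp.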

How the data were processed

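The values come from 1 deposited peak list of the series. Per the submitters' processing notes, MACS made the calls and the build was mm9. Not given in the sources used here are the aligner, the settings of MACS, read filters, and which libraries served as treatment and control. The name of the list carries a version tag of MACS and barcodes, and the barcodes could not be matched to libraries. A broad open stretch may be split or joined by the calling, which sets the number, width and spacing of regions. The score in the deposited list is the authors' peak caller's value, on a scale not stated. Starts were converted to count from 1. Shares and medians of the list are over 3189 nuclear regions, leaving out 1 mitochondrial region. Windows of 1 Mb were counted by midpoint from the first to the last region of chromosome 13. A gap runs from the end of a region to the start of the next. All 11 regions, the nearest region on either side, the next 3 windows by count and the adjoining windows were named by rule. The window, groups and lists were chosen with earlier results of these data known. No test was run: there were no replicates. Distances rest on an approximate Plk2 position. Promoters came from a RefSeq table. Counting steps were tested on simulated data. Work used Python 3.11.15, numpy 2.4.6, pandas 2.3.3 and matplotlib 3.10.9.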

Additional observations from a re-analysis of the deposited data

How the results depend on the processing

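No paired analysis was possible because the list carries no values per library, and no library could be left out for the same reason. The count of 11 regions was 9 at scores at or above the list's median, 10 after merging regions less than 1 kb apart and 9 after merging those less than 10 kb apart. With the grid shifted by 0.5 Mb, the lower window held 3 regions and ranked 23rd on the chromosome, while the upper held 8 and ranked 1st; the shift divides the group near Plk2 from the more distant groups. A window of 2 Mb with the same centre also held 11 and ranked 1st. The 4 regions with another within 10 kb became 2 at scores at or above the median, 2 after merging under 1 kb, 0 after merging under 10 kb (by construction), 2 at a distance of 2 kb and 10 at 100 kb. The 2 regions within 100 kb of Plk2 stayed 2 with the Plk2 position moved by 5 kb either way and at 50 kb, and became 3 at 200 kb. The median gap ranged from 14.2 to 15.9 kb. Unknown depth leaves unknown how many regions fell below the caller's threshold.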
